A study of Mus musculus with 6 samples.

Results

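Cells with a nucleus display fragments of their own proteins on major histocompatibility complex (MHC) class I molecules, and 10 mouse genes of that pathway are described here in T cells driven toward the regulatory (Treg) fate with or without DEL-1-Fc. The genes are the transactivator Nlrc5, the light chain B2m, the heavy chains H2-K1 and H2-D1, the peptide-loading genes Tap1, Tap2 and Tapbp, and the immunoproteasome subunits Psmb8, Psmb9 and Psmb10. They were chosen by name, with earlier results of these data known. Each was found by its Ensembl identifier among the 39179 listed in every library. All 10 were among the 14928 genes with enough counts to be tested.

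DEL-1-Fc is DEL-1, a secreted integrin-binding protein, fused to an antibody Fc part. The 3 DEL-1-Fc libraries and the 3 Fc control libraries came from polyA RNA of splenic naive CD4+ cells of wild type C57BL/6 mice aged 6 weeks. Both groups shared the same 3 days of culture with plate-bound anti-CD3 (2 µg/ml, with the unit garbled in the labels), anti-CD28 (1 µg/ml), TGF-β1 (5 ng/ml) and IL-2 (40 ng/ml). The Tregs are therefore cells induced in culture, not sorted from tissue, and the labels do not say whether the 3 libraries of a group came from separate animals or cultures. P-values below therefore speak of how much these libraries varied, and that variation may be technical.

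A class I molecule is a heavy chain paired with B2m and a short peptide. The proteasome cuts proteins into peptides, the TAP1 and TAP2 transporter carries them into the endoplasmic reticulum, and tapasin (Tapbp) holds the empty class I molecule beside the transporter until it is loaded. Interferon-γ is known to raise all of these genes through IRF1 and NLRC5, among other factors, and to exchange the constitutive catalytic subunits of the proteasome for the immunoproteasome ones. NLRC5 is recruited to class I promoters through a composite element that holds a CRE-like site and an inverted CCAAT box, and an upstream enhancer with a κB site and an interferon response element lies beside it.

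The promoter sequence of H2-K1, from RefSeq (GRCm38.p6), is shown because it holds 4 of these elements in 1 stretch, and that of B2m because B2m was among the genes that fell. Both run 5′ to 3′ on the gene's own strand, up to the annotated start. Capitals mark 5 motifs searched on both strands: a κB-like motif (GGG, any 2 bases, then TTCCC), AANNGAAA (the IRF core), TTCNNNGAA (GAS), TGACG (a CRE half-site) and CCAAT, which reads ATTGG when inverted.
H2-K1, chr17:34000348-34000597, minus strand: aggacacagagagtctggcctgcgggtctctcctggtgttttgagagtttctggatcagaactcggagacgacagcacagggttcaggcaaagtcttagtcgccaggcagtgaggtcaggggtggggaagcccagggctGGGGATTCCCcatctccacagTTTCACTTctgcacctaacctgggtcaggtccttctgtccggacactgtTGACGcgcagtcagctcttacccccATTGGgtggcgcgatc
B2m, chr2:122147437-122147685, plus strand: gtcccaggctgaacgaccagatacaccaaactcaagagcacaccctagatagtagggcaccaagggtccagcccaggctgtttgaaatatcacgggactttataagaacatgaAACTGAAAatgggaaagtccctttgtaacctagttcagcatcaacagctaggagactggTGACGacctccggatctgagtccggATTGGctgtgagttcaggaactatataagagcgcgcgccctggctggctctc

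Short stretches of 30 bases show what the class I promoters have in common. The enhancer stretches of H2-K1 and H2-D1 were identical at 29 of 30 bases.
H2-K1 enhancer, chr17:34000429-34000458, minus strand: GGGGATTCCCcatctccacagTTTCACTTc
H2-D1 enhancer, chr17:35262923-35262952, plus strand: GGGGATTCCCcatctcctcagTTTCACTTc
The CRE half-site stands in a less similar setting in the promoters of the 2 heavy chains (24 of 30 bases identical), and it recurs in B2m and Tap1.
H2-K1 CRE half-site, chr17:34000371-34000400, minus strand: tccggacactgtTGACGcgcagtcagctct
H2-D1 CRE half-site, chr17:35262981-35263010, plus strand: ccgggacactgaTGACGcgctggcaggtct
B2m CRE half-site, chr2:122147597-122147626, plus strand: ctaggagactggTGACGacctccggatctg
Tap1 CRE half-site, chr17:34187458-34187487, plus strand: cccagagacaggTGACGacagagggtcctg
Of the 10 genes, 8 had a RefSeq promoter window of 250 bases before the start. RefSeq starts differ from the GENCODE gene spans given below: the windows of H2-D1, Tapbp, Psmb8 and Psmb9 lie wholly inside the GENCODE span and that of Psmb10 by 52 bases, since GENCODE lists transcripts that begin further upstream. The CRE half-site was in 5 of these 8 (B2m, H2-K1, H2-D1, Tap1 and Psmb9), against 17.8% of the 32851 mouse promoter windows of that length. CCAAT was in 6 of 8, against 33.8% of all windows, the IRF core in 3 of 8 (B2m, H2-K1 and H2-D1), against 21.3%, and the κB-like motif in 2 of 8 (H2-K1 and H2-D1), against 1.53%. GAS was found in Psmb8 alone of the 8, against 7.02%. Tap1 and Psmb9 are transcribed away from each other from a shared stretch, so their windows overlap and their CRE half-site and CCAAT are the same sites. In H2-K1, H2-D1 and B2m an inverted CCAAT box lies between the half-site and the start. The only CCAAT in the Tap1 window is not inverted and begins 222 bases before the start, upstream of the half-site at 86. A match is a description of letters, not evidence of binding.

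Before the results, 1 library stands apart. Total counts ran from 33364166 to 58075983 in DEL-1-Fc and from 55318383 to 61967687 in Fc, and DEL-1-Fc replicate 1 was the shallowest. On the second principal component of log CPM (CPM, counts scaled to library size and composition), which carried 23.3% of the variance, DEL-1-Fc replicate 1 lay at 27.9 and replicates 2 and 3 at -28.7 and -23.6, with the Fc libraries between 4.4 and 11.5. The 5 T cell markers were counted in all libraries and summed to between 1597 and 1850 CPM in DEL-1-Fc and between 1534 and 1616 CPM in Fc. The 4 Treg markers were counted in all libraries and did not move together. Foxp3, the factor that defines Tregs, was higher in DEL-1-Fc (log2 fold change 0.54, adjusted p = 0.0166, but 0.0753 to 0.0928 without DEL-1-Fc replicate 1, Fc replicate 1 or Fc replicate 3), and Ctla4 was lower (-0.30, adjusted p = 0.031, but 0.0613 to 0.135 without DEL-1-Fc replicate 2 or any one Fc library and 0.0616 with library sizes alone). Il2ra, which makes up most of their sum, and Ikzf2 were not called (0.05 and -0.10). The 6 B cell markers summed to 6.24 to 7.5 CPM in DEL-1-Fc and 6.05 to 7.42 CPM in Fc, a sum in which Ebf1 was lower in DEL-1-Fc (-1.40, adjusted p = 0.00232) and Cd79b, not called, measured 0.73 (adjusted p = 0.0921). The 6 macrophage and monocyte markers summed to 4.24 to 4.65 CPM in DEL-1-Fc and 4.66 to 4.94 CPM in Fc. Nearly all of that sum was Cd68, not called (-0.11, adjusted p = 0.572), and only 1 of the 6 had more than 3 counts in every library. The 4 NK cell markers summed to at most 0.0675 CPM in the DEL-1-Fc libraries and to at most 0.109 CPM in the Fc libraries, with Ncr1 at 0. The 6 dendritic cell markers summed to 6.51 to 7.06 CPM in DEL-1-Fc and 8.91 to 9.02 CPM in Fc, with Clec9a and Siglech at 0 in every library, and nearly all of it was Zbtb46 (-0.42, adjusted p = 0.0192, but 0.0695 to 0.0981 without DEL-1-Fc replicate 3 or any one Fc library). The 2 CD8 markers summed to 11.9 to 12.8 CPM in DEL-1-Fc and 10.1 to 10.4 CPM in Fc, with Cd8a higher in DEL-1-Fc (0.78, adjusted p = 0.00607). Cd8b1, the larger part of that sum, was not called (0.04, adjusted p = 0.846). These single markers were picked out after their values were seen, and the part of the marker differences in the results was not tested.

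DEL-1-Fc cultures held lower mRNA levels of 2 of the 10 genes, Tapbp and B2m, at 78.0% and 83.2% of the Fc level, and 0 of the 10 passed the test for a rise. The other 8 did not pass edgeR's quasi-likelihood test at an adjusted p of 0.05 over all genes tested. Across the transcriptome 12.6% of the genes were called in either direction, 6.22% as lower and 6.4% as higher, and 2 of 10 is a small count to read against that background. At an unadjusted p of 0.05, 5 of the 10 were lower and 1 higher, beside 13.2% of all genes lower and 13.8% higher. DESeq2 called Tapbp, Tap1 and B2m lower and 0 higher (16.3% of all genes called, 8.32% lower and 7.95% higher), and limma-voom called Tapbp and B2m lower and 0 higher (11.9% of all genes, 5.93% lower and 5.96% higher). The median log2 fold change (DEL-1-Fc over Fc) was -0.17 for the 10 genes and 0.01 for all genes tested. Values below 0 were found for 9 of the 10, beside 7250 of all 14928 genes tested. In bulk RNA a lower value can come from fewer cells that express a gene or from less RNA per cell, which cannot be told apart.

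**Figure D1:**
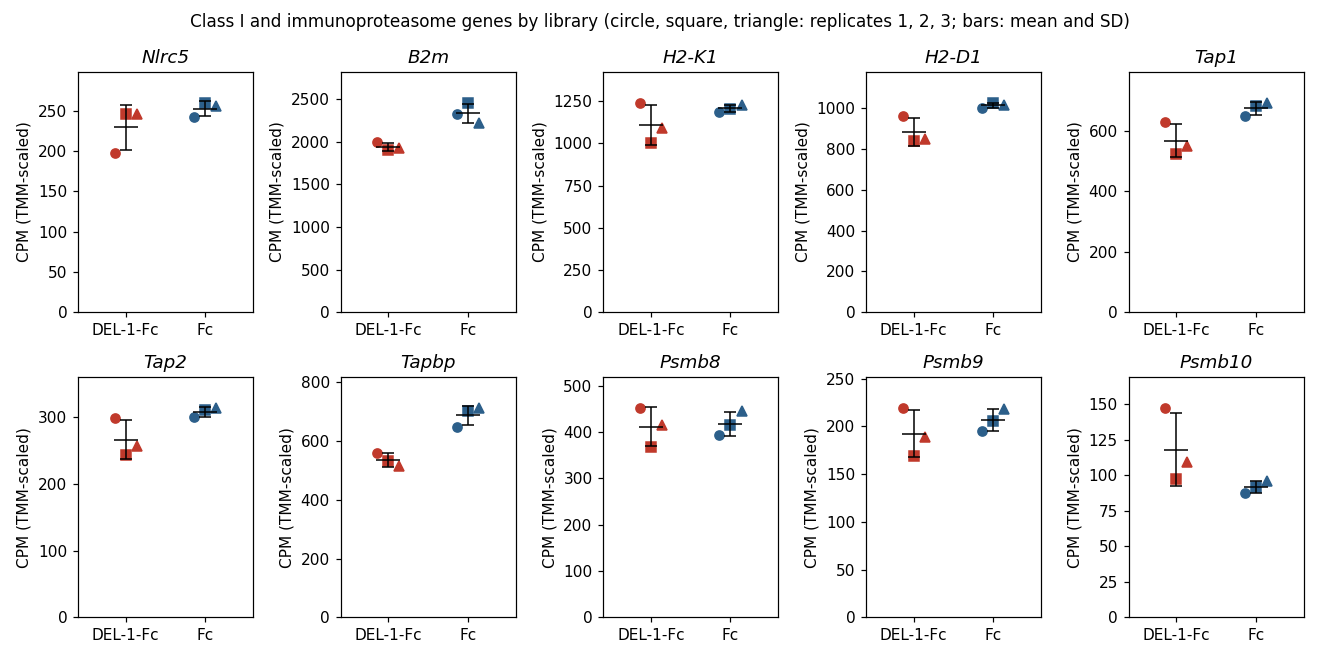
CPM of each gene (vertical axis from 0, TMM-scaled) in the 3 DEL-1-Fc libraries (red, left) and the 3 Fc libraries (blue, right), with symbols for replicates 1, 2 and 3 and bars for mean and SD. The DEL-1-Fc libraries lie below all Fc libraries for B2m, H2-D1, Tap1, Tap2 and Tapbp and above them for Psmb10, and DEL-1-Fc replicate 1 (circle) is the highest of its group for 9 of the 10 genes.

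Tapbp, which encodes tapasin, had the largest fall. It measured 559.0, 531.5 and 514.4 CPM in DEL-1-Fc and 648.4, 699.7 and 709.7 CPM in Fc. The groups did not overlap, and all DEL-1-Fc libraries lay below the lowest Fc library. The log2 fold change was -0.36 (SE 0.0693, 95% interval -0.52 to -0.20, edgeR adjusted p = 0.0105). Tapbp (ENSMUSG00000024308) lies on the plus strand of chromosome 17 from 33915899 to 33929292 (GRCm38), where exons of Zbtb22 on the same strand and of Gm19412 on the other overlap its own, so some of its reads are uncertain. The adjusted p rose past the threshold when Fc replicate 2 was left out (0.0648, with a log2 fold change of -0.34) or when Fc replicate 3 was (0.0668, with -0.33).

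B2m, the light chain that every class I molecule needs, was the most abundant of the 10 genes. It measured 1993, 1896 and 1925 CPM in DEL-1-Fc and 2318, 2450.4 and 2221 CPM in Fc. The 3 DEL-1-Fc libraries were close together and all lay below the 3 Fc libraries. The log2 fold change of -0.27 (SE 0.0727, 95% interval -0.43 to -0.10) passed narrowly, at an edgeR adjusted p of 0.0451. B2m (ENSMUSG00000060802, chromosome 2, 122147686 to 122153083) shares no 31-base word with another gene and overlaps no other exon. Among the alternatives that ended the call were leaving out any one library other than DEL-1-Fc replicate 1 (adjusted p between 0.0892 and 0.214), library sizes alone (0.0529) and no low-count filter (0.0994), while the log2 fold change stayed between -0.30 and -0.23 in all 14 alternatives.

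The heavy chains H2-K1 and H2-D1, which carry the peptide groove, did not pass. H2-D1 measured 961.1, 838.7 and 849.2 CPM in DEL-1-Fc and 999.1, 1024 and 1017 CPM in Fc, with all DEL-1-Fc libraries below the Fc libraries (log2 fold change -0.20, SE 0.0749, edgeR adjusted p = 0.125). H2-K1 measured 1238, 999.7 and 1092 CPM in DEL-1-Fc and 1188, 1206 and 1228.5 CPM in Fc. Here the groups overlapped, because DEL-1-Fc replicate 1 was the highest of the 6 libraries. The H2-K1 log2 fold change was -0.12 (SE 0.0871, 95% interval -0.32 to 0.08, adjusted p = 0.408). Of the 31-base words in H2-K1, 22.5% occur in another gene (16.2% in H2-D1), and of those in H2-D1, 27.5% do (12.9% in H2-K1), so reads may be split between them and both values are uncertain. H2-K1 (ENSMUSG00000061232) spans 33996017 to 34000347 on the minus strand of chromosome 17, and H2-D1 (ENSMUSG00000073411) spans 35262730 to 35267499 on the plus strand. Per kilobase of exon they stood at 377.7 ± 40.8 and 342.4 ± 26.3 CPM per kb in DEL-1-Fc and at 411.0 ± 6.91 and 392.9 ± 4.96 CPM per kb in Fc (SD, n = 3), levels of the same order, while B2m stood at 2253 ± 57.9 in DEL-1-Fc and 2709 ± 134.1 in Fc.

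Tap1 and Tap2 form the peptide transporter, and neither passed. Tap1 measured 628.2, 524.6 and 549.9 CPM in DEL-1-Fc and 650.1, 681.0 and 691.5 CPM in Fc (log2 fold change -0.25, SE 0.0813, edgeR adjusted p = 0.0828). Tap2 measured 298.6, 243.2 and 255.7 CPM in DEL-1-Fc and 299.3, 309.5 and 312.4 CPM in Fc (-0.21, SE 0.0825, adjusted p = 0.143). In both genes the DEL-1-Fc libraries lay below all Fc libraries, with DEL-1-Fc replicate 1 just under the lowest Fc library for Tap2. The ratio of Tap1 to Tap2, in counts per kilobase of exon, was 1.45, 1.49 and 1.49 in DEL-1-Fc and 1.5, 1.52 and 1.53 in Fc, a narrow range in which every DEL-1-Fc library was below every Fc library. Tap1, Psmb8, Psmb9 and Tap2 stand side by side on chromosome 17, in a block of 34.3 kb from 34181987 to 34216321. In order of position these are Psmb9 (ENSMUSG00000096727, 34181987 to 34187764, minus strand), Tap1 (ENSMUSG00000037321, 34187553 to 34197225), Psmb8 (ENSMUSG00000024338, 34197721 to 34201454) and Tap2 (ENSMUSG00000024339, 34203527 to 34216321), the last 3 on the plus strand. Exons of Tap1 and Psmb9 overlap on opposite strands, and those of Psmb8 and Tap2 overlap the predicted gene Gm20496. The strand setting of the counting is not given in the sources used here, so reads in the overlaps cannot be assigned.

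Nlrc5, the class I transactivator, measured 197.6, 245.5 and 245.6 CPM in DEL-1-Fc and 242.1, 259.4 and 256.0 CPM in Fc. It was the only gene of the 10 for which DEL-1-Fc replicate 1 was the lowest library of its group. The log2 fold change was -0.14 (SE 0.0900, 95% interval -0.34 to 0.07, edgeR adjusted p = 0.368). With DEL-1-Fc replicate 1 left out it was -0.04 (adjusted p = 0.626). Nlrc5 (ENSMUSG00000074151) lies on the plus strand of chromosome 8, 94434356 to 94527272, where the predicted gene 9330175E14Rik overlaps it on the other strand. Nlrc5 had the lowest level per length of the 10 genes, at 27.0 ± 3.26 CPM per kb in DEL-1-Fc and 29.7 ± 1.08 in Fc (SD, n = 3).

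The immunoproteasome subunits did not pass in either direction. Psmb8 (also called LMP7) measured 450.6, 366.5 and 415.5 CPM in DEL-1-Fc and 392.3, 414.2 and 444.9 CPM in Fc, with overlapping groups (log2 fold change -0.02, SE 0.0886, 95% interval -0.22 to 0.18, edgeR adjusted p = 0.904). Psmb9 (LMP2) measured 218.7, 169.3 and 189.3 CPM in DEL-1-Fc and 195.4, 206.0 and 218.6 CPM in Fc, again overlapping (-0.10, SE 0.0946, 95% interval -0.32 to 0.11, adjusted p = 0.525). Psmb10 (MECL-1) was the only gene of the 10 with a value above 0. It measured 147.1, 97.6 and 109.6 CPM in DEL-1-Fc and 87.7, 91.8 and 95.9 CPM in Fc, so every DEL-1-Fc library was above every Fc library, though DEL-1-Fc replicate 2 only narrowly. Its log2 fold change of 0.36 (SE 0.138, 95% interval 0.04 to 0.68) did not pass (adjusted p = 0.136). Leaving out DEL-1-Fc replicate 1, the highest library, gave 0.18 (adjusted p = 0.0693), whereas leaving out DEL-1-Fc replicate 2 gave 0.48 and a call (adjusted p = 0.0367). Psmb10 (ENSMUSG00000031897) lies away from the MHC (chromosome 8, 105935735 to 105938444, minus strand) and shares no 31-base word with another gene.

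**Figure D2:**
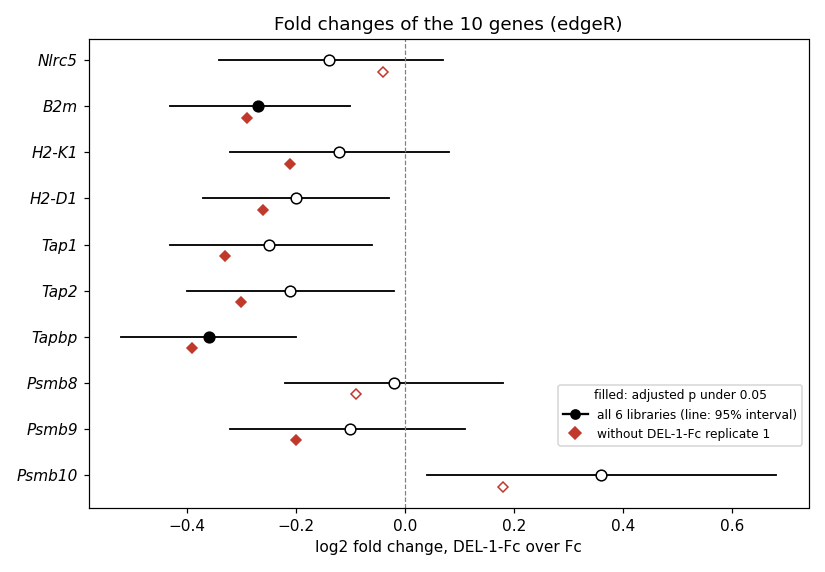
Log2 fold changes (DEL-1-Fc over Fc, horizontal axis) of the 10 genes from edgeR, with 95% intervals for all 6 libraries (black circles) and the value without DEL-1-Fc replicate 1 (red diamonds). Filled symbols passed an adjusted p of 0.05, which is 2 genes with all libraries and 7 genes without that library, and all filled symbols lie below 0.

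Of the 10 genes, 5 had DEL-1-Fc libraries entirely below the Fc libraries, against 17.5% of all genes tested, and 1 (Psmb10) had them entirely above, against 17.3%. Non-overlap in either direction was seen for 34.8% of all genes tested. DEL-1-Fc replicate 1 was the highest of its group for 9 genes, and the coefficient of variation was larger in DEL-1-Fc than in Fc for 8, up to 21.9% in DEL-1-Fc and 4.49% in Fc for Psmb10. Without DEL-1-Fc replicate 1, which leaves 2 DEL-1-Fc libraries against 3 Fc libraries, edgeR called 7 of the 10 lower and 0 higher, beside 19.7% of all genes called in the same fit, 9.98% lower and 9.76% higher. The genes added were Tap1 (log2 fold change -0.33, adjusted p = 0.0023), Tap2 (-0.30, adjusted p = 0.00205), H2-D1 (-0.26, adjusted p = 0.00552), H2-K1 (-0.21, adjusted p = 0.0323) and Psmb9 (-0.20, adjusted p = 0.0493). The median over the 10 genes was then -0.24. Without Fc replicate 2, edgeR called 0 of the 10 and 6.4% of all genes. At an unadjusted p of 0.05, that fit had 3 of the 10 lower and 0 higher, beside 9.47% and 10.4% of all genes. Without Fc replicate 3 it called 0 of the 10 and 6.32% of all genes, with 2 of the 10 lower and 1 higher at an unadjusted p of 0.05, beside 10.1% and 10.6% of all genes. Tapbp alone was called without Fc replicate 1 (5.95% of all genes called) and without DEL-1-Fc replicate 3 (8.56%), and without DEL-1-Fc replicate 2 (11.4%) Tapbp was called lower and Psmb10 higher.

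The proteasome exchange was compared directly as the ratio of each immunoproteasome subunit to the constitutive subunit whose place it takes, in counts per kilobase of exon. Exon length here counts every base in any annotated exon, also those that the main transcript may lack. The level of a ratio therefore depends on the annotation, while the log2 difference between groups does not. Psmb10 over Psmb7 was 1.59, 1.2 and 1.22 in DEL-1-Fc and 0.973, 1.06 and 1.01 in Fc, and the groups did not overlap. The mean log2 ratio was 0.41 ± 0.228 in DEL-1-Fc and 0.02 ± 0.0621 in Fc (SD, n = 3), a difference of 0.39 with a two-sided exact permutation p of 0.1, the smallest that 3 against 3 can give (0.3 adjusted over the 3 ratios). Psmb9 over Psmb6 was 0.537, 0.538 and 0.556 in DEL-1-Fc and 0.541, 0.582 and 0.6 in Fc, a log2 difference of -0.08 (exact permutation p = 0.2, 0.3 adjusted). Psmb8 over Psmb5 was 0.884, 1.01 and 1.29 in DEL-1-Fc and 0.993, 1.11 and 1.06 in Fc, a log2 difference of -0.01 (exact permutation p = 1, also 1 adjusted). Psmb5 shares 74% of its 31-base words with other genes, mostly the predicted gene Gm3375, so that ratio is uncertain. Psmb5, Psmb6 and Psmb7 themselves had log2 fold changes of 0.01, -0.02 and -0.04 (edgeR adjusted p of 0.989, 0.901 and 0.735).

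**Figure D3:**
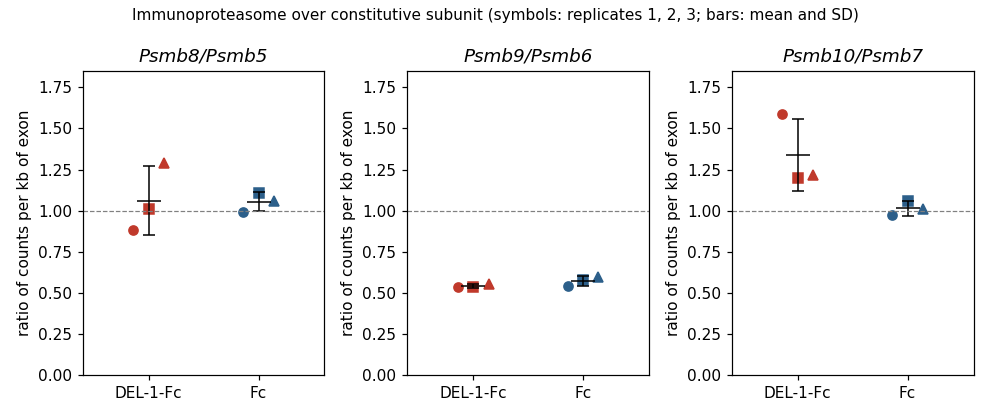
Ratio of each immunoproteasome subunit to its constitutive counterpart in counts per kilobase of exon (vertical axis from 0, dashed line at 1) in the 3 DEL-1-Fc libraries (red, left) and the 3 Fc libraries (blue, right), with mean and SD. Psmb10 over Psmb7 lies between 1.2 and 1.59 in DEL-1-Fc and between 0.973 and 1.06 in Fc, while the other pairs overlap. Where a ratio lies against 1 depends on the exon lengths used.

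No gene of the rest of the proteasome was called. Of the 11 other subunits of the 20S core, the 10 activators and assembly factors and the 18 subunits of the 19S cap, 0 were called by edgeR, DESeq2 or limma-voom, with median log2 fold changes of 0.02, 0.04 and 0.00 and 1 gene, Psmd3, at an unadjusted p under 0.05. Of all genes tested, edgeR called 12.6%, DESeq2 16.3% and limma-voom 11.9%. The smallest p-values in these lists belonged to Psma5 (log2 fold change 0.13, adjusted p = 0.433), to Psmf1, a proteasome inhibitor (-0.13, adjusted p = 0.193), and to Psmd3 (-0.20, adjusted p = 0.151). Without DEL-1-Fc replicate 1, Psmd3 was called lower (-0.29, adjusted p = 0.00249), as were Psmd11 (-0.19, adjusted p = 0.0188), Psmf1 (-0.17, adjusted p = 0.0212), and the constitutive subunit Psmb5 (-0.21, adjusted p = 0.0442). That fit called 9.98% of all genes lower and 9.76% higher. Among 13 genes that help load or trim class I peptides, among them the chaperones Calr and Canx and the peptidase Erap1, 0 were called by edgeR or limma-voom. Of these 13, 11 lay below 0, beside 7250 of all 14928 genes tested, with a median of -0.09. At an unadjusted p of 0.05, 3 of these 13 were lower and 0 higher, beside 13.2% and 13.8% of all genes. DESeq2 called 2, Lnpep and Uggt1, as lower, beside 8.32% of all genes. Lnpep, a trimming peptidase, had the largest difference of these (log2 fold change -0.48, adjusted p = 0.158), with 33.8, 57.4 and 54.8 CPM in DEL-1-Fc and 67.5, 67.0 and 69.4 CPM in Fc, and Uggt1, a folding sensor that acts in class I quality control, measured -0.19 (adjusted p = 0.0691). The DEL-1-Fc libraries of Lnpep were all below the Fc libraries, and replicate 1 was far below the other two. Leaving DEL-1-Fc replicate 1 out gave calls for Lnpep (-0.28, adjusted p = 0.00253), Uggt1 (-0.19, adjusted p = 0.0284) and the peptidase Npepps (-0.22, adjusted p = 0.0174), the last named after its values were seen. Uggt1 was also called without DEL-1-Fc replicate 2 (adjusted p = 0.0451).

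Among class Ib and other class I-like heavy chains, 4 of 13 tested genes fell and 1 rose, with a median log2 fold change of -0.08. Of all genes tested, 6.22% were called lower and 6.4% higher. At an unadjusted p of 0.05, 5 of the 13 were lower and 3 higher, beside 13.2% and 13.8% of all genes. DESeq2 called 4 lower and 2 higher, beside 8.32% and 7.95%. H2-Q6 fell to 16.7, 17.4 and 19.8 CPM in DEL-1-Fc, against 31.1, 35 and 35.4 CPM in Fc (log2 fold change -0.91, SE 0.0880, edgeR adjusted p = 0.000356). H2-T24 fell to 33.7, 37.5 and 40.8 CPM in DEL-1-Fc, against 52.4, 57.2 and 57.0 CPM in Fc (-0.57, adjusted p = 0.00237), and H2-Q7 fell as well, to 52.2, 57.0 and 59.6 CPM in DEL-1-Fc, against 70.5, 76.9 and 74.4 CPM in Fc (-0.39, adjusted p = 0.00721). In all 3 genes the groups did not overlap. H2-T23, which encodes the Qa-1 molecule that presents leader peptides of class I chains, measured 258.2, 214.7 and 249.4 CPM in DEL-1-Fc and 300.6, 315.8 and 331.9 CPM in Fc (-0.39, adjusted p = 0.0150), and Cd1d1, which presents lipids, rose at a low level, with 4.05, 3.63 and 3.59 CPM in DEL-1-Fc and 1.57, 2.77 and 2.09 CPM in Fc (0.80, adjusted p = 0.0316). Cd1d1 and H2-T23 were named after their values were seen. H2-T23 missed the threshold with Fc replicate 2 or 3 left out (adjusted p of 0.0652 and 0.0777), and Cd1d1 missed it without any one library other than DEL-1-Fc replicate 1 and Fc replicate 2 (0.0557 to 0.112). The share of 31-base words found in another gene was 50.3% for H2-Q6, 39.9% for H2-Q7, 33.2% for Cd1d1, 26.2% for H2-T23 and 6.51% for H2-T24, so the first 4 are uncertain. H2-Q6, H2-T24 and H2-Q7 were called in all 14 alternatives. Whether they fell more than H2-K1 or H2-D1 was not tested.

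Among the regulators of class I transcription, 1 of 25 tested genes rose and 5 fell, beside 6.4% and 6.22% of all genes tested. Interferon-γ (Ifng) and the Ifngr1 chain of its receptor moved in opposite directions. Ifngr1, the ligand-binding chain of the interferon-γ receptor, measured 111.9, 119.2 and 111.4 CPM in DEL-1-Fc and 64.1, 72.6 and 71.8 CPM in Fc (log2 fold change 0.72, SE 0.0688, edgeR adjusted p = 0.000355). Ifng measured 10.4, 9.68 and 13.9 CPM in DEL-1-Fc and 36.1, 31.1 and 28.6 CPM in Fc (-1.49, adjusted p = 0.000418). Ifngr2, the other chain of that receptor, named after its values were seen, was not called (0.06, adjusted p = 0.676). For Ifng and Ifngr1 the groups lay well apart, and exons of Gm49751 overlap those of Ifng. Stat2, which carries type I interferon signals, fell to 125.2, 146.5 and 143.5 CPM in DEL-1-Fc, against 199.1, 219.6 and 218.2 CPM in Fc (-0.62, adjusted p = 0.0012). Irf8, Nfkb1 and Tyk2, named after their values were seen, fell by 0.35, 0.24 and 0.23 on the log2 scale (adjusted p of 0.0149, 0.0461 and 0.0463). The Irf8 call was lost without any one Fc library (0.0564 to 0.092). Without any one Fc library or DEL-1-Fc replicate 3 the adjusted p was 0.126 to 0.195 for Nfkb1 and 0.118 to 0.178 for Tyk2, and Nfkb1 also lost its call without DEL-1-Fc replicate 2 (0.0516). Library sizes alone (0.0668) and no low-count filter (0.084) also ended the Nfkb1 call, and library sizes alone (0.1) and limma-voom (0.0501) the Tyk2 call. Irf1, a factor that interferon-γ induces and that was also named after its values were seen, had a log2 fold change of 0.11 (adjusted p = 0.377).

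Of 10 tested MHC class II genes, of which mouse T cells are known to express little, 3 rose and 0 fell, with a median log2 fold change of 0.28. Over all genes tested, 6.4% were called higher and 6.22% lower. At an unadjusted p of 0.05, 4 were higher and 1 lower, beside 13.8% and 13.2% of all genes. DESeq2 called 3 higher and 1 lower, beside 7.95% and 8.32%. The lower gene was Cd74, the invariant chain (adjusted p = 0.046 by DESeq2 and 0.0801 by edgeR), named after its values were seen. Cd74 was the most abundant of these class II genes. It measured 141.0, 122.8 and 122.9 CPM in DEL-1-Fc and 147.7, 152.1 and 148.4 CPM in Fc (edgeR log2 fold change -0.21). Ciita, the class II counterpart of Nlrc5, measured 0.823, 0.743 and 0.506 CPM in DEL-1-Fc and 0.317, 0.359 and 0.273 CPM in Fc (1.09, SE 0.272, edgeR adjusted p = 0.0311), and its exons overlap those of Dexi. H2-Aa (0.82, adjusted p = 0.0125) and H2-Ob (1.12, adjusted p = 0.0208) also rose, at levels between 1.55 and 2.96 CPM in DEL-1-Fc and between 0.529 and 1.53 CPM in Fc. Of the 10 class II genes, 7 lay above 0 and 3 below. H2-Ab1, named after its values were seen, was among the 3 and was not called (-0.21, adjusted p = 0.492). H2-Aa missed the threshold with Fc replicate 1 or 2 left out (adjusted p of 0.0531 and 0.0649). The H2-Ob call was lost without DEL-1-Fc replicate 2 or 3 (0.0561 and 0.0559) or Fc replicate 1 or 3 (0.0732 and 0.0859). The Ciita call was lost without DEL-1-Fc replicate 2 (0.0818) or any one Fc library (0.0797 to 0.119). The part of B cell RNA in these values was not tested.

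**Figure D4:**
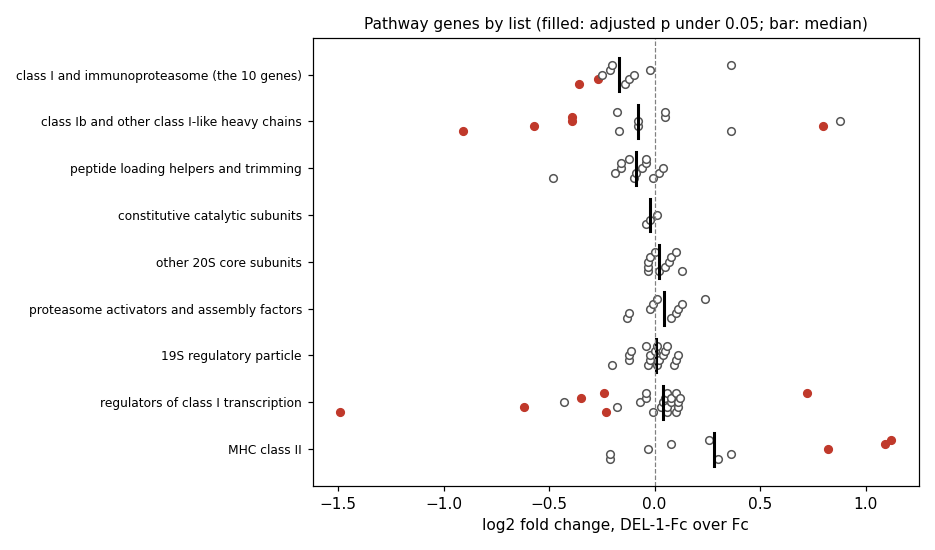
Log2 fold changes (DEL-1-Fc over Fc, horizontal axis) of the 10 genes and of 8 lists of other genes of antigen presentation and the proteasome, 1 circle a gene, filled where the adjusted p was under 0.05, with a bar at each median. The proteasome lists gather around 0, whereas the class Ib heavy chains, the regulators and the class II genes spread from -1.49 to 1.12.

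By position, 7 of the 10 genes lie in the MHC on chromosome 17. Within 100 kb of the 10 genes, 73 other genes were tested, of which 5 were called lower and 5 higher. Of all genes tested, 6.22% were called lower and 6.4% higher. The 5 lower neighbours were Daxx, Prrc2a, Brd2, H2-K2 and Dus2, and the 5 higher ones Sord, Ltb, Mir6973a, H2-Aa and H2-Ob. Apart from H2-Aa and H2-Ob, already given above, these were named after their values were seen. The 5 genes outside the 10 whose log CPM followed the mean standardised profile of the 10 most closely over the 6 libraries were Manf (Pearson r = 0.991), Stx11 (0.988), C1qtnf12 (0.987), Scarb2 (0.987) and Grn (0.985). None of these 5 was called (adjusted p between 0.11 and 0.187). Libraries of a group share their treatment, so these correlations only describe how alike the profiles are.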

How the data were processed

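PolyA RNA of 3 DEL-1-Fc and 3 Fc libraries was sequenced. The values deposited by the authors are raw, unnormalized read counts for each gene, made with STAR and HTSeq 0.6.0 on GRCm38, per the submitters' processing notes. Which annotation, strand setting and rule for multi-mapping reads were used is not given in the sources used here. Symbols, coordinates and exon lengths came from GENCODE M21 (37693 of 39179 identifiers matched), and promoters from RefSeq. An exon length counts every base in any annotated exon of the gene, so levels per kilobase depend on the annotation.

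R 4.3.3 and edgeR 4.0.16 were used to test the counts: genes were kept by filterByExpr (minimum count 10, total 15), followed by TMM scaling, the robust quasi-likelihood test of DEL-1-Fc over Fc and Benjamini-Hochberg adjustment over 14928 genes, with calls at 0.05. The fit was tested on simulated data. SE is the absolute log2 fold change over the square root of F. Intervals are not adjusted for multiple testing. CPM use TMM-scaled library sizes. Counts of the 10 genes ran from 4829 to 150152 per library, so counting error is small beside replicate spread. Replicates differed by more than counting noise (a ratio of chi-square to degrees of freedom from 18.3 upward).

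The 10 genes and all lists were chosen with earlier results of these data known. Named genes were the 10, up to 3 of smallest p per list, all of Psmb5, Psmb6 and Psmb7, and the 5 most alike profiles (mean of at least 5 CPM, no predicted genes). Any other gene named for its values is marked as such. The alternatives were DESeq2 1.42.0, limma-voom (limma 3.58.1), other scalings and filters, the replicate number as a block, and each library left out. Shared 31-base words compare the longest transcript of a gene with all transcripts of other genes.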

Additional observations from a re-analysis of the deposited data

How the results depend on the processing

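The 10 genes kept the sign of their log2 fold change in each of the 14 alternatives, except Psmb8, which came to 0.00 with library sizes alone, 0.05 without DEL-1-Fc replicate 2 and 0.03 without Fc replicate 3 (-0.09 to 0.05 with a library left out). The number of the 10 called was 1 with library sizes alone, 1 with no low-count filter and 1 with the replicate block (Tapbp each time), 3 with DESeq2, and 0 to 7 with a library left out. Calls over all genes ranged from 901 to 3003 and calls among the 103 other pathway genes from 7 to 24 with a library left out, the highest of each without DEL-1-Fc replicate 1. The cause was not tested. The log2 difference of Psmb8 over Psmb5 ran from -0.15 to 0.12 with a library left out. Genes near 0 that changed sign were Psmb5 (-0.03 with limma-voom, -0.00 with no low-count filter, -0.02 with the replicate block, -0.21 without DEL-1-Fc replicate 1, -0.03 without Fc replicate 2, -0.21 to 0.14 with a library left out), Psmb6 (0.00 with library sizes alone and without DEL-1-Fc replicate 3, 0.05 without DEL-1-Fc replicate 2, -0.13 to 0.05 with a library left out), and, with a library left out, Psmb7 (-0.08 to 0.01) and Psmb4 (-0.07 to 0.21). With library sizes alone 1122 genes were called higher and 753 lower, against 956 and 928 with TMM. Same-numbered libraries did not deviate together (correlations of 0.0163, 0.0885 and 0.0425), so the numbers are not taken as pairs. With the replicate block 1510 genes were called in place of 1884, and B2m (adjusted p = 0.0877), Cd1d1 (0.0587), Nfkb1 (0.0841) and Tyk2 (0.0693) lost their calls. With that block the log2 differences of the ratios were -0.01 for Psmb8 over Psmb5, -0.08 for Psmb9 over Psmb6 and 0.39 for Psmb10 over Psmb7 (exact sign-flip p of 1, 0.25 and 0.25). The smallest two-sided p that a sign-flip test of 3 pairs can give is 0.25, so it could not pass 0.05.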
